A study of Homo sapiens with 4 samples.

Results

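The genes examined were 6 Frizzled receptor genes, FZD1, FZD2, FZD4, FZD5, FZD7 and FZD8, the co-receptor genes LRP5 and LRP6, and the scaffold genes AXIN1 and AXIN2. They were chosen by name, with earlier results of these data known. Their m6A sites were taken as the listed sites on the same strand in an exon of any GENCODE transcript of the gene. Of the 18789 listed sites, 34 (0.181%) met this rule, and they lay in 6 of the 10 genes. The list came from miCLIP2, which crosslinks an anti-m6A antibody to RNA fragments with ultraviolet light and reads the modified nucleotide from the end of the cDNA. The RNA was polyadenylated RNA of untreated, wild type C643 cells, an established line from an anaplastic thyroid carcinoma. The series had 1 group with 3 biological replicates, sequenced as 4 libraries, since replicate 1 was given as 2 technical libraries. The authors called peaks in each replicate, kept those found in at least 2, and deposited 1 list of the sites that their classifier m6Aboost predicted to be m6A, with a prediction score each. There was thus no spread between replicates and no read depth per site. No comparison below could therefore be tested over samples. Intervals are 95% Wilson intervals over sites or motifs, which cover sampling only, and sites of a gene are not independent of each other.

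WNT ligands bind the extracellular cysteine-rich domain of a Frizzled receptor together with LRP5 or LRP6. The activated receptors recruit Dishevelled and AXIN to the membrane, and the complex of AXIN, APC and the kinases that marks beta-catenin for destruction loses its activity. AXIN2 is itself a transcriptional target of beta-catenin and acts as negative feedback. In mRNA, m6A is placed by the METTL3 complex, mostly at DRACH sequences, where D is A, G or T, R is A or G and H is A, C or T, and it is read by YTH proteins that affect mRNA stability and translation.

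The sites are introduced by their sequences, since motif and position carry the comparison. Each line gives the GRCh38 window of 21 nt around the site with the highest prediction score of a gene, in the sense of the transcript, with the pentamer centred on the m6A in capitals.
FZD1 (chr7:91266666-91266686, plus strand, coding): atgagcccGGACTtcacggtc
FZD2 (chr17:44558616-44558636, plus strand, coding): ttctccgaGGACGgttaccgc
FZD7 (chr2:202036431-202036451, plus strand, 3' UTR): agggaaaaGAACTgctgggtg
FZD8 (chr10:35640101-35640121, minus strand, coding): tactcgcaGTACTtccacctg
LRP5 (chr11:68386458-68386478, plus strand, coding): tgtctactGGACAgatgacga
AXIN1 (chr16:346669-346689, minus strand, coding): gacttgctGGACTtctggttt
The windows of FZD2 and FZD8 were not at DRACH, with G as the last base of the pentamer in FZD2 and T before the A in FZD8.

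Among the 10 genes examined, sites were listed in the 4 Frizzled genes of 1 exon, FZD1, FZD2, FZD7 and FZD8, in LRP5 and in AXIN1. Outside these 10 genes, FZD9 and FZD10 also have 1 exon and had 0 sites. No site was listed in the spliced Frizzled genes FZD4 and FZD5, in LRP6 or in AXIN2. Among all 19396 protein-coding genes, 19.6% had a listed exonic site, and among the 1138 chosen single-exon coding transcripts 8.79% had a site. The 4 genes without sites did not lack motifs: their transcripts held 544 DRACH motifs, of which 205 were coding and 323 in the 3' UTR, against 437 in the 6 genes with sites. The GGACT pentamer occurred 40 times in the former and 38 times in the latter. Expression was not analysed here, and a gene without sites cannot be told apart from a gene with too few reads for peak calling. The GC content of the chosen transcripts ran from 40.9% (LRP6) to 53.1% (AXIN2) in the genes without sites. It ran from 47.6% (FZD1) to 64.6% (FZD8) in those with sites, so that the ranges overlapped. The overlap rested on FZD1, since the next lowest gene with sites was FZD2 at 55.8%. The part of GC content in the difference was not tested.

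**Figure D1:**
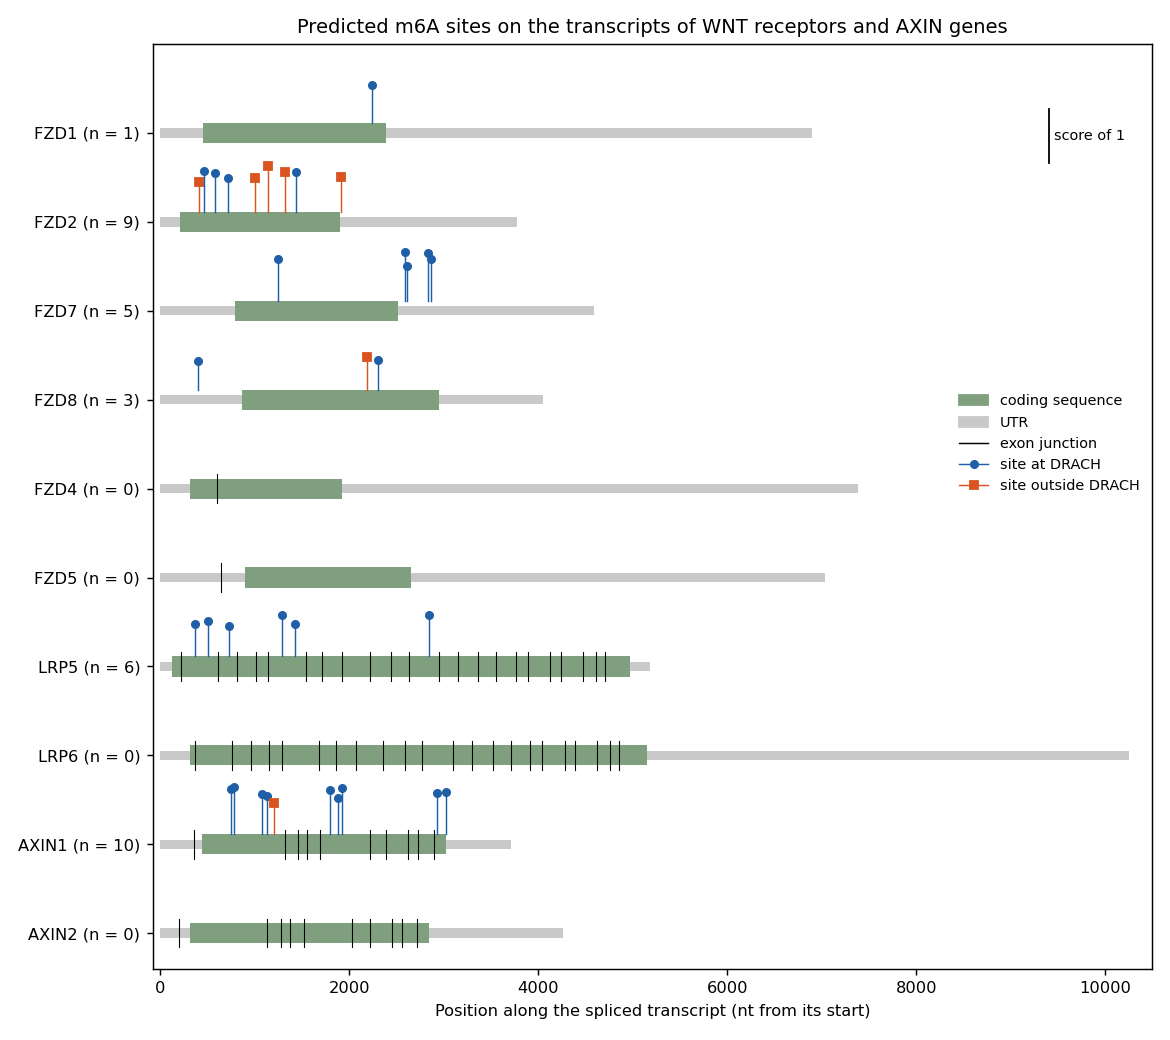
Each horizontal bar is the chosen transcript of a gene, drawn from its start in nt, with coding sequence in green, UTRs in grey and exon junctions as black ticks. Each stem is a listed site, its height above the bar is the prediction score on a scale from 0 to 1 given by the bar at the top right, and orange squares mark the 7 sites outside DRACH. All sites of LRP5 and AXIN1 lie in coding sequence, and FZD4, FZD5, LRP6 and AXIN2 carry none.

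FZD2, an intronless receptor gene (chr17:44557484-44561262, plus strand), carried 9 sites, a number reached by 16.1% of the coding genes with a site. Along its coding sequence, 8 sites lay between codon 68 and codon 410, and the last site followed the stop codon directly, at 6 nt from its first nucleotide. From 5' to 3', the scores of the coding sites were 0.553 at GGACG, 0.761 at GAACT, 0.724 at GAACA, 0.630 at GGACT, 0.626 at GTACT, 0.866 at GGACG, 0.738 at GTACT and 0.745 at GGACC. The site after the stop codon, at position 44559390 in the 3' UTR, had a score of 0.653 at GGACG. Thus 5 of the 9 sites, including the one with the highest score, were outside DRACH. The lowest score of the gene, 0.553, was that of the GGACG at position 44557891.

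FZD7 (chr2:202033855-202038441, plus strand) showed the opposite placement. A single coding site lay at position 202035096 (codon 150, GAACT) with a score of 0.779, and the other 4 sites lay in the 3' UTR. They were 71, 98, 311 and 350 nt from the first nucleotide of the stop codon, with scores of 0.909 at GAACT, 0.655 at TAACT, 0.893 at AGACT and 0.773 at GGACT. The first of them, at position 202036441, had the highest score among the 34 sites of all members, and the TAACT at position 202036468 had the lowest of FZD7. All 5 sites of FZD7 were at DRACH. In the first 400 nt of the 3' UTR, FZD7 had 4 of 9 DRACH motifs listed. FZD1 had 0 of 9, FZD2 had 0 of 8 and FZD8 had 0 of 9 in the same window, so similar numbers of motifs near the stop codon were available in the 4 genes.

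FZD1 (chr7:91264433-91271326, plus strand) had the longest transcript of the intronless genes (6894 nt, of which 4502 nt are 3' UTR) and only 1 site, at position 91266676 and -146 nt from the stop codon, with a score of 0.712 at GGACT. None of its 87 DRACH motifs in the 3' UTR was listed. FZD8 (chr10:35638247-35642296, minus strand) had 3 sites with low scores. They were the only 5' UTR site among the members, at position 35641895 with a score of 0.536 at TGACT, and coding sites at position 35640111 with a score of 0.616 at GTACT and at position 35639994 with a score of 0.553 at GGACA. The 3 scores of FZD8 all fell below 0.640, the lower quartile of the whole list.

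Over the 4 intronless genes, 7 of 69 coding DRACH motifs were listed (10.1%, 5.00 to 19.5) and 4 of 171 in the 3' UTR (2.34%, 0.913 to 5.86). In single-exon coding transcripts with a site, the shares were 20.4% (18.5 to 22.5) of coding motifs and 9.43% (8.41 to 10.6) of 3' UTR motifs. The 3' UTRs of the 4 genes were poorer in GC, at 37.2% to 45.0%, than their coding sequences, at 65.1% to 70.9%. The spliced receptors had a similar contrast in FZD5, with 67.6% in the coding sequence and 40.5% in the 3' UTR, and a smaller one in FZD4, with 50.3% and 43.4%. FZD5 (chr2:207762598-207769906, minus strand) has its whole coding sequence in exon 2 of 2. FZD4 (chr11:86945679-86955395, minus strand), which also binds Norrin, has a junction within the coding sequence, and 26 of its 27 coding DRACH motifs lay over 100 nt from it. Their coding sequences thus offered 35 DRACH motifs over 100 nt from a junction. That 0 of these were listed follows from neither gene having a site. Over all spliced coding genes with a site, 18.1% of this class were listed, a share that leaves out genes without sites and so is no background for FZD4 and FZD5.

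The coding sequences of the 6 Frizzled genes were aligned through the proteins they encode to ask whether sites lie at the same codons. The 12 coding sites fell into 10 alignment columns, and 2 columns were listed in more than 1 gene, each in FZD2 and FZD8. The encoded proteins of FZD2 and FZD8 were 53.9% identical, while FZD2 and FZD7, at 80.3% identity, shared no listed column, nor did FZD2 and FZD1 at 81.3%. In both FZD2 and FZD8, the shared sites lay 117 nt apart, at codons 371 and 410 of FZD2 and codons 440 and 479 of FZD8. At the first of these columns, the aligned windows were as follows, with the central pentamer in capitals.
FZD2 (chr17:44558790-44558810, plus strand, listed): aactctcaGTACTtccacctg
FZD8 (chr10:35640101-35640121, minus strand, listed): tactcgcaGTACTtccacctg
FZD7 (chr2:202035776-202035796, plus strand, not listed): aactcgcaGTACTtccacctg
FZD5 (chr2:207767654-207767674, minus strand, not listed): tacgcgcaGTACTtccacctg
FZD1 (chr7:91266207-91266227, plus strand, not listed): aactcacaGTATTttcacctg
FZD4 (chr11:86951709-86951729, minus strand, not listed): cacagctcTTATTtccacatt
The pentamer GTACT, which is outside DRACH because of the T before the A, was thus shared by 4 genes, of which FZD2 and FZD8 were listed, with scores of 0.738 and 0.616. At the second column, the windows were the following.
FZD2 (chr17:44558907-44558927, plus strand, listed): aacagcctGGACCcgctgcgg
FZD8 (chr10:35639984-35640004, minus strand, listed): cagagcctGGACAacctgcgc
FZD5 (chr2:207767537-207767557, minus strand, not listed): cagaacctGAACTcgctgcgc
FZD7 (chr2:202035893-202035913, plus strand, not listed): tccagtgtGGACGcgctgcgg
FZD1 (chr7:91266324-91266344, plus strand, not listed): aacaacgtGGACGcgctgcgt
FZD4 (chr11:86951592-86951612, minus strand, not listed): caaaatctCGATGccctcacc
Here the listed genes had DRACH pentamers, FZD5 had a DRACH that was not listed, and FZD1 and FZD7 had G as the last base. The scores were 0.745 in FZD2 and 0.553 in FZD8. With each position counted once, the 10 columns gave 51 aligned positions in a Frizzled gene other than that of the site, with an A in 35 and a DRACH in 6, of which 4 were not listed. The site of FZD1 itself was aligned with CGACT in FZD2, FZD7 and FZD8, which is not DRACH. Reads of paralogs can be confused in alignment, and this was not tested. The 30 nt from each of the 34 sites onward occurred in the chosen transcript of 0 other coding genes, at an exact match. Near matches, other isoforms and genes that are not protein-coding were not searched.

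**Figure D2:**
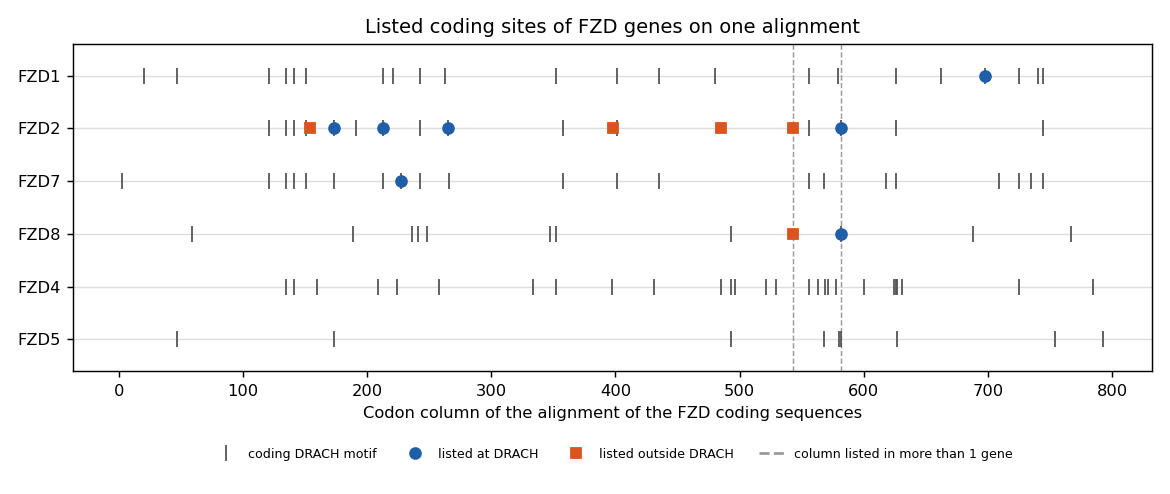
Each row is the coding sequence of a Frizzled gene placed on the codon columns of the alignment, with coding DRACH motifs as grey ticks, listed DRACH sites as blue circles and listed sites outside DRACH as orange squares. The dashed lines mark the 2 columns listed in both FZD2 and FZD8, and FZD4 and FZD5 show ticks without any listed site.

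The pentamer GTACT was singled out after it was seen among the Frizzled sites. It accounted for 3 of the 18 sites of intronless genes, against 1.39% of the whole list, and 3 of the 15 GTACT in the 4 transcripts were listed (20.0%, 7.05 to 45.2) against 4.49% over coding transcripts with a site. Over all 10 members, 3 of 53 were listed (5.66%, 1.94 to 15.4). These 53 include the GTACT of the 4 genes without sites, 13 in LRP6, 8 in FZD4, 3 in FZD5 and 3 in AXIN2. The 4.49% leaves out such genes, so the 2 shares are not like for like. The third listed GTACT lay in FZD2 at position 44558485 (codon 266), where FZD1 has GTACC and FZD7 has CTACC in the aligned codon. GGACG occurred 28 times in the 4 transcripts, and 3 were listed (10.7%, 3.71 to 27.2), all in FZD2, against 6.94% over coding transcripts with a site, which lies within that interval. At position 44558626 (codon 313), where FZD2 had its highest score, the aligned pentamer of FZD1 was also GGACG and was not listed. GGACT, the most frequent pentamer of the list, was listed at 3 of 20 occurrences (15.0%, 5.24 to 36.0), against 26.0% over coding transcripts with a site.

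LRP5 and LRP6 are single-pass co-receptors with the same number of exons, 23 in each chosen transcript, and their encoded proteins were 70.8% identical. Some exons differed in length, most of all the last, with 467 nt in LRP5 and 5396 nt in LRP6. LRP5 (chr11:68312591-68449275, plus strand) carried 6 sites, all of them coding in the chosen transcript and all at DRACH, and LRP6 (chr12:12116025-12267044, minus strand) carried none. The sites of LRP5 lay in exons 2, 3, 6 and 12, with scores of 0.604 and 0.658 in exon 2, 0.564 in exon 3, 0.782 and 0.603 in exon 6, and 0.778 in exon 12. The lowest, at position 68357758, was the only one within 100 nt of a junction, at 90 nt. The highest, at position 68386468, was 153 nt from the nearest junction. Of the coding DRACH motifs of LRP5, 5 of 27 over 100 nt from a junction were listed (18.5%, 8.18 to 36.7) and 1 of 89 closer to one (1.12%, 0.199 to 6.09). Over all spliced coding genes with a site, the shares were 18.1% and 2.43%, so that both values of LRP5 included the background in their intervals.

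The extracellular part of both co-receptors is built from beta-propellers with repeats named YWTD after the amino acids tyrosine, tryptophan, threonine and aspartate. In the sense strand of LRP5, the sequence TACTGGAC, which in frame gives the codons of tyrosine and tryptophan and the start of that of threonine, occurred 12 times, in frame in 12. Its A before the last C was listed in 3 of them (25.0%, 8.89 to 53.2). Over all coding transcripts with a site, 3.16% held the sequence, and 21 of 131 occurrences (16.0%) were listed, those of LRP5 included. The sequence was not set in advance and is part of listed LRP5 windows, so its share there is only a description. The 3 listed copies of LRP5 are shown with their aligned windows in LRP6, to compare the repeats of the listed and the unlisted co-receptor.
LRP5, codon 80 (chr11:68347983-68348003, plus strand, listed): cgtgtactGGACAgacgtgag
LRP6, codon 68 (chr12:12244499-12244519, minus strand, not listed): gatatactGGAGTgatgtcag
LRP5, codon 390 (chr11:68386458-68386478, plus strand, listed): tgtctactGGACAgatgacga
LRP6, codon 377 (chr12:12181277-12181297, minus strand, not listed): catctactGGACTgatgatga
LRP5, codon 433 (chr11:68386587-68386607, plus strand, listed): cctctactGGACCgacacggg
LRP6, codon 420 (chr12:12181148-12181168, minus strand, not listed): tctttattGGACAgacactgg
A further LRP5 site, at codon 126 with the window tactggacGGACTcagagacc, lay in the aspartate codon right after another copy. The remaining sites, at codons 199 and 905, were outside such copies. Of the 12 copies in LRP5, 4 lay over 100 nt from a junction, and the 3 listed ones were among these. LRP6 had 7 copies, 2 of them over 100 nt from a junction, and 0 listed. At the 6 codons listed in LRP5, LRP6 had an A in 6 and a DRACH in 3, and at the 3 pairs shown it was 147, 153 and 116 nt from the nearest junction, as LRP5 was. Of these 3 positions in LRP6, that at codon 68 was not at DRACH. The coding sequence had a GC content of 63.6% in LRP5 and 46.5% in LRP6, and the part of this in the difference was not tested.

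AXIN1, the scaffold of the beta-catenin destruction complex (chr16:287440-352723, minus strand), carried the most sites of the 10 genes. Its 10 sites were all coding in the chosen transcript, a number of sites reached by 12.6% of coding genes with a site. In exon 2, the longest exon of the transcript at 959 nt, 5 sites had scores of 0.854, 0.884, 0.757, 0.724 and 0.591 from 5' to 3'. In exon 6, of 530 nt, 3 sites had scores of 0.821, 0.685 and 0.870. In exon 11, the last, 2 sites had scores of 0.769 and 0.793. The sites were therefore confined to 3 of the 11 exons of this transcript, and these were the 3 longest. Exons 2, 6 and 11 also held most motifs, with 22, 5 and 9 of the 52 DRACH motifs. Of the 25 coding ones over 100 nt from a junction, they held 19, 4 and 1. The highest score belonged to a GGACT at position 346679 and the lowest to the only non-DRACH site of the gene, a GGACG at position 346259. Of the coding DRACH motifs, 8 of 25 over 100 nt from a junction were listed (32.0%, 17.2 to 51.6), and 1 of 18 closer to one (5.56%, 0.988 to 25.8), against the same backgrounds of 18.1% and 2.43%. The site close to a junction, at 33 nt, was a TGACT at position 288216 in the last exon.

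The most 3' site of AXIN1, at position 288126, was at the junction of coding sequence and 3' UTR. Its A is in codon 862, the last before the stop codon, so the GGACT pentamer runs into the stop codon. It is shown with the first pair of exon 2 and the aligned windows of AXIN2, which lies at chr17:65528563-65561648 on the minus strand, encodes a protein of 48.9% identity and had 0 sites among 82 DRACH motifs.
AXIN1, codon 104 (chr16:346706-346726, minus strand, listed): cctgttcaGGACTttcctgaa
AXIN2, codon 97 (chr17:65558322-65558342, minus strand, not listed): cctgttccGAACTttcctgga
AXIN1, codon 116 (chr16:346669-346689, minus strand, listed): gacttgctGGACTtctggttt
AXIN2, codon 109 (chr17:65558285-65558305, minus strand, not listed): gataccttAGACTtctggttt
AXIN1, codon 862 (chr16:288116-288136, minus strand, listed): gagaaggtGGACTgataggct
AXIN2, codon 843 (chr17:65529970-65529990, minus strand, not listed): gagcggatCGATTgagccctg
At codons 97 and 109, AXIN2 had a DRACH that was 405 and 442 nt from the nearest junction, and at its last codon it had none. In all, 9 of the 10 AXIN1 sites had an aligned codon in AXIN2, with an A in 7 and a DRACH in 4. Exon 2 of AXIN2 was of similar length, 931 nt, and held 18 coding DRACH motifs over 100 nt from a junction against 19 in AXIN1. AXIN2 thus offered aligned motifs in a like exon. That none was listed follows from the gene having no site, and expression was not analysed.

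The classes were then compared by region. In the intronless Frizzled genes, 12 of 18 sites were coding (66.7%, 43.7 to 83.7), 5 lay in the 3' UTR (27.8%, 12.5 to 50.9) and 1 in the 5' UTR. Without FZD2, 4 of 9 were coding (44.4%, 18.9 to 73.3), and without FZD7, 11 of 13 (84.6%, 57.8 to 95.7). In the members with introns, 16 of 16 were coding in the chosen transcripts (80.6% to 100%), 6 in LRP5 and 10 in AXIN1. Of these, 7 lay in another isoform in a 3' UTR (LRP5) or a noncoding transcript (AXIN1). The spliced Frizzled genes had no site to compare. Over all members 28 of 34 sites were coding (82.4%, 66.5 to 91.7), while coding sites made up 42.1% (41.4 to 42.8) over all coding genes with a site and 51.1% (47.5 to 54.7) over those of 1 exon. A distance of at most 200 nt to the stop codon was found for 6 of the 34 sites (17.6%, 8.35 to 33.5), against 33.3% (32.6 to 34.0) over all coding genes with a site. These were the site of FZD1, the last site of FZD2, 2 sites of FZD7 and 2 of AXIN1. The 3' UTRs of LRP5 and AXIN1 were short, at 205 and 682 nt, and held 6 and 7 DRACH motifs of which none was listed. LRP6 had 90 DRACH motifs in a 3' UTR of 5101 nt. Of the 28 coding sites, 18 were at the middle base of a codon (64.3%, 45.8 to 79.3) and 13 in a GAC codon (46.4%, 29.5 to 64.2). Both shares were near those over all coding genes with a site, 57.9% and 47.4%.

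By motif, 27 of the 34 sites were at DRACH (79.4%, 63.2 to 89.7), and 7 (20.6%, 10.3 to 36.8) were not, against 11.3% of the whole list. The intronless Frizzled genes had 6 of the 7, or 33.3% (16.3 to 56.3) of their sites, while genes of 1 exon with a site had 13.5% (11.2 to 16.2). This share rested on FZD2, which had 5 of the 6. In FZD1, FZD7 and FZD8 together 1 of 9 sites was outside DRACH (11.1%, 1.99 to 43.5). LRP5 had 0 of 6 and AXIN1 had 1 of 10. GGACA and GGACT were the most frequent pentamers with 8 sites each, and the 8 GGACA were in AXIN1, LRP5 and FZD8. Since the surrounding sequence and the region were inputs of the classifier, neither is independent of the list.

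The share of exonic DRACH motifs that were listed allows genes of different length to be compared. It was highest in AXIN1, with 9 of 52 (17.3%, 9.38 to 29.7), and was followed by FZD2 with 4 of 39 (10.3%, 4.06 to 23.6), FZD7 with 5 of 65 (7.69%, 3.33 to 16.8), LRP5 with 6 of 123 (4.88%, 2.25 to 10.2), FZD8 with 2 of 46 (4.35%, 1.20 to 14.5) and FZD1 with 1 of 112 (0.893%, 0.158 to 4.88). Over all coding transcripts with a site, 7.33% of motifs were listed. The interval of AXIN1 lay above this background and that of FZD1 below it, while those of FZD2, FZD7, FZD8 and LRP5 included it, and neighbours in this order overlapped throughout. The intervals treat motifs of a gene as independent, which they are not, so placing a gene against a background is only a description. For the 4 intronless genes together the share was 4.58% (2.64 to 7.83), below the 12.9% (12.0 to 13.9) of single-exon coding transcripts with a site. FZD1 held 112 of the 262 motifs, and without it the share was 11 of 150 (7.33%, 4.14 to 12.7). This interval still lay below 12.9%, though it overlapped the interval of the single-exon transcripts.

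**Figure D3:**
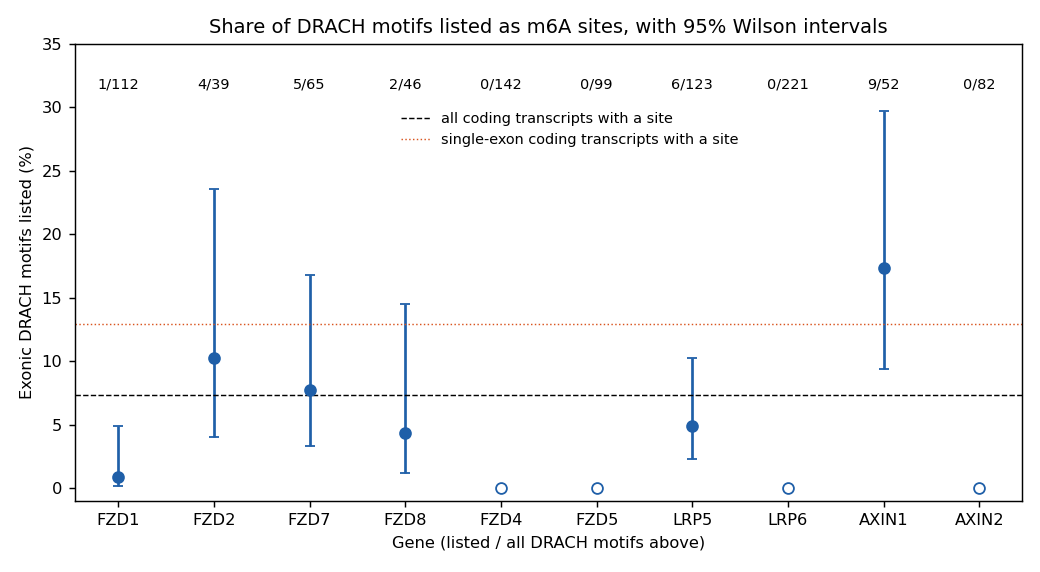
Points give the percentage of exonic DRACH motifs of each gene that were listed as m6A sites, with 95% Wilson intervals and the counts above. Open circles mark genes with 0 listed sites, for which no interval is drawn, the dashed line is the 7.33% of all coding transcripts with a site and the dotted line the 12.9% of those with 1 exon. AXIN1 is the only gene whose interval lies wholly above the dashed line.

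The prediction scores of the members ran from 0.536 to 0.909. Their median was 0.718 in the intronless Frizzled genes (quartiles 0.627 and 0.770), 0.631 in LRP5 (0.603 and 0.748) and 0.781 in AXIN1 (0.732 and 0.846), against 0.754 (0.640 and 0.847) for the whole list. The ranges of the 3 classes overlapped. Among the intronless genes, the median was 0.779 in FZD7, 0.724 in FZD2 and 0.553 in FZD8. The highest score of FZD8, 0.616, was below the lowest of FZD7, 0.655, so that these genes did not overlap, which is a description of 3 and 5 sites. Member sites outside DRACH had a median of 0.626, close to the 0.621 of all such sites of the list, and member sites at DRACH had 0.757 against 0.769. The GGACG of FZD2 with a score of 0.866 was above the upper quartile of 0.811 of all listed GGACG. With a score of at least 0.7, AXIN1 kept 8 of 10 sites, FZD2 5 of 9, FZD7 4 of 5, FZD1 its only site, LRP5 2 of 6 and FZD8 0 of 3.

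**Figure D4:**
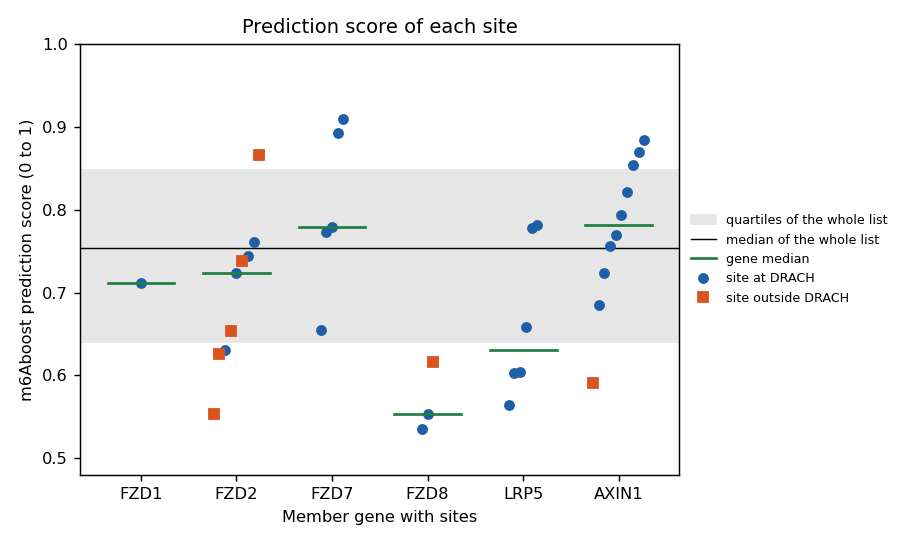
Each point is the m6Aboost prediction score of a site, with circles at DRACH, squares outside DRACH and a green line at the median of each gene. The grey band spans the quartiles of the whole list, 0.640 to 0.847, and the black line its median of 0.754. All 3 sites of FZD8 lie below the band, and 1 site of FZD2, 2 of FZD7 and 3 of AXIN1 reach above it.

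Neighbouring sites of a gene were 27 to 1784 nt apart along the transcript, with a median of 138 nt over 28 pairs, and 4 pairs were at most 50 nt apart. These were 2 pairs in the 3' UTR of FZD7, 27 and 39 nt apart, and a pair each in exon 2 and exon 6 of AXIN1, 37 and 43 nt apart. The sites of FZD2 were instead spread, with no pair closer than 58 nt.

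Of 74 other genes of the WNT pathway, 17 (23.0%) had a listed exonic site, close to the 19.6% of all protein-coding genes. In the cytoplasm, 8 of 19 genes had sites, among them the Dishevelled genes DVL1, DVL2 and DVL3 with 9, 2 and 3 sites, and the beta-catenin gene CTNNB1 with 1. In the nucleus, 3 of 8 had sites. Among ligands and secretion factors 3 of 21 had sites, among other receptors and receptor turnover 2 of 9 (PTK7 and ZNRF3), and among antagonists 1 of 13 (DKK3). The other Frizzled genes FZD3, FZD6, FZD9 and FZD10 had none, and of these FZD9 and FZD10 also have 1 exon. The genes with the most sites were the beta-catenin coactivator gene BCL9L with 22, all coding, and the ligand genes WNT7B with 19, of which 18 were in the 3' UTR, and WNT5B with 18, of which 12 were in the 3' UTR. The labelled cell type could not be checked, because the list holds no expression values.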

How the data were processed

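miCLIP2 reads of untreated C643 cells had been mapped and counted by the authors, and 1 list of predicted sites was deposited, without counts or signal per replicate. The submitters' processing notes name STAR (v2.7.3a), UMI-tools (v1.0.0), SAMtools (v1.9), bedtools (v2.27.1) and GRCh38.p12. The deposited score is a fraction between 0 and 1 that the authors' m6Aboost classifier assigned to a peak at A. It is not a methylation level, and only sites from 0.500 upward were listed. Since peaks need reads, low expression limits detection.

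Sites were placed on GENCODE release 44 (the authors used an earlier release) and on GRCh38 sequence with Python 3.11.15, pandas 2.3.3 and pysam 0.24.0. Each gene was represented by its longest protein-coding transcript with a support level of at most 3, or none assigned, and an annotation level of at most 2. Motifs were searched on the sense strand of the transcript. Coding sequences were aligned through translated proteins with MAFFT 7.526, and Wilson intervals were computed with scipy 1.17.1. Placement was tested on simulated data, where 1000 of 1000 planted positions were recovered. No test was run, because the list held 1 group and no replicate values. All members were named, with every one of their sites, and of the other WNT genes the 3 with the most sites, while the rest were named after their values were seen. The members and lists were chosen with earlier results of these data known. Alternatives were a score of at least 0.7, canonical transcripts, only DRACH sites, RAC (R is A or G) in place of DRACH, exons of the chosen transcript and a window of 400 nt around the stop codon. Leaving out each intronless Frizzled gene was added after seeing the data.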

Additional observations from a re-analysis of the deposited data

How the results depend on the processing

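Of 50 values recomputed under alternatives, 45 stayed within the interval, or for counts within 1.5 times, of the reported value, and 5 moved. Some of the 45 could not move, so the tally is no measure of robustness. These included the values for canonical transcripts, for exons of the chosen transcript and for the spliced Frizzled genes, which had no site. With a score of at least 0.7, the sites in members went from 34 to 20, the share at DRACH from 79.4% to 90.0%, and the listed share of DRACH motifs in the co-receptors from 1.74% to 0.581%. This setting leaves fewer sites by construction, and FZD8 then had none. It also took the median score of LRP5 from 0.631 to 0.780, which was not counted as moved. The interval used for a median was not a Wilson interval, and that of LRP5, 0.564 to 0.782, spanned all 6 of its scores. With RAC in place of DRACH, 91.2% of the sites matched the motif, since RAC includes GGACG. Leaving out each intronless Frizzled gene in turn was chosen after seeing the data. The coding share of that class then went from 66.7% to 84.6% without FZD7 and to 44.4% without FZD2, and its listed share of DRACH motifs from 4.58% to 7.33% without FZD1. With the window around the stop codon widened to 400 nt, it held 23.5% of the sites. The canonical transcripts were the chosen ones for the 10 members. The spliced Frizzled genes gave no region share or median score because they had no site. Leaving out a replicate was not possible with 1 combined list. No paired analysis was possible because there was 1 group. Depth per site is unknown, so a site that was not listed cannot be told apart from one with too few reads, and 7 member sites had another region in another isoform.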
